A study of Mus musculus with 20 samples.

Results

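Open chromatin was described at 31 genes through which blood stem and progenitor cells hold on to, leave and return to the bone marrow niche. They comprise 13 integrin alpha subunits, 7 integrin beta subunits, 4 selectin-ligand, hyaluronan-receptor and integrin counter-receptor genes, 3 chemokine-axis genes and 4 junction, endothelial and guidance receptors. A peak, meaning a stretch of DNA where transposase insertions pile up, was given to a gene when its centre lay inside that gene, or else to the gene with the nearest boundary among mm10 protein-coding genes. This rule used no measured level. It gave 472 of 125343 peaks, with at least 1 for each of the 31 genes, and 256 of the 472 had their centre inside the gene. A further 50 lay over 100 kb from the gene they were named for, so a name marks a neighbour and not a regulated target.

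ATAC-seq was used, an assay that tags open DNA with adapters carried by a transposase. The cells were LSK cells (Lin-cKit+Sca1+), the stem and multipotent progenitor compartment, sorted from C57Bl/6J bone marrow after magnetic removal of lineage-positive cells. WT mice were +/+;Vav-Cre. Idh1 R132H mice carried the allele Idh1LSL-R132H/+ together with Vav-Cre. Idh2 R140Q mice carried Idh2LSL-R140Q/+ and Idh2 R172K mice Idh2LSL-R172K/+, likewise with the Cre, and the Tet2 knockout was Tet2-/-. Mice were 3 to 4 months old, and each of the 5 genotypes had 4 libraries, each from a pool of 2 mice. Vav-Cre is a recombinase active in blood cells, so WT shares the Cre with the Idh mutants. The label of the Tet2 knockout names no Cre, and WT was its only control. The Idh mutations are heterozygous and give the enzyme the ability to make 2-hydroxyglutarate, while Tet2 oxidises methylated cytosine.

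Integrins are paired alpha and beta subunits that bind matrix proteins and cell-surface ligands. Itga4 with Itgb1 binds Vcam1 and fibronectin and anchors progenitors to stroma, and Itgal with Itgb2 binds Icam1. Cxcl12, secreted by niche stroma, retains cells that carry its receptor Cxcr4, whereas selectins on endothelium catch cells through glycoproteins such as Selplg and Cd44. Vcam1 and Cxcl12 are best known as products of niche cells, so in LSK cells their neighbourhoods are those of ligand genes.

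Counts in peaks ran from 10502052 to 27890340 per library, and the lowest total belonged to Idh2 R172K replicate 2. Start-site peaks were present at 9 of 10 LSK marker genes, with a summed level of 227 to 238 CPM in WT and 235 to 258 CPM in Idh2 R172K, and Kit had none within 1 kb of a start site. CPM is the count per 1000000 counts in peaks after TMM scaling, which corrects library sizes for composition. Libraries split by signal at Xist, which was high in replicates 2 and 4 of WT and the Idh mutants and in replicates 3 and 4 of the Tet2 knockout. Values within the Xist-high and Xist-low libraries, with 2 libraries per genotype in each, stand beside the counts of calls and beside peaks apart from WT whose call they end.

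RefSeq start-site windows (GRCm38.p6, the assembly that mm10 represents) were found for 20 of the 31 genes, in 22 windows of 300 bases, of which 18 overlapped a peak. The windows below were picked among those under a called peak, to show gains and losses side by side: Itga2, Itga1 and Itga4 were raised in Idh2 R172K, Robo4 was raised in both Idh2 R172K and the Tet2 knockout, and Itgax and Cxcr4 were lowered in Idh2 R172K. Each runs 5′ to 3′ on the strand of the gene, from 250 bases before to 50 after the start. Capitals mark matches on either strand to the GATA motif AGATAA, the ETS motifs CCGGAA and GAGGAAGT, the RUNX motif TGTGGTT, the E-box CAGCTG and the AP-1 motif TGANTCA. Positions are chr13:114932051-114932350 on the minus strand for Itga2, chr13:115101915-115102214 on the minus strand for Itga1, chr2:79255176-79255475 on the plus strand for Itga4, chr9:37401722-37402021 on the plus strand for Robo4, chr7:128129300-128129599 on the plus strand for Itgax and chr1:128592250-128592549 on the minus strand for Cxcr4.
Itga2: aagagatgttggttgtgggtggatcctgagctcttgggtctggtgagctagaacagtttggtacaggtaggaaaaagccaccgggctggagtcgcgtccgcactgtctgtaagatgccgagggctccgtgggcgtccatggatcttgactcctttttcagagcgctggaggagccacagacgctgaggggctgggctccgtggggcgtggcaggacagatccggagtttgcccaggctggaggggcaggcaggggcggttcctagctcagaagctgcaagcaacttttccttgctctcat
Itga1: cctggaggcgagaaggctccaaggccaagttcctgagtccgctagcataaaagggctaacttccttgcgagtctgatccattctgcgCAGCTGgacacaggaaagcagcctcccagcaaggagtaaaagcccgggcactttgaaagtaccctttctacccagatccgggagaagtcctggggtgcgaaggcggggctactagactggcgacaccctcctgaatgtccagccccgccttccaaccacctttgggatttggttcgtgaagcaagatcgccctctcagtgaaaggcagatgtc
Itga4: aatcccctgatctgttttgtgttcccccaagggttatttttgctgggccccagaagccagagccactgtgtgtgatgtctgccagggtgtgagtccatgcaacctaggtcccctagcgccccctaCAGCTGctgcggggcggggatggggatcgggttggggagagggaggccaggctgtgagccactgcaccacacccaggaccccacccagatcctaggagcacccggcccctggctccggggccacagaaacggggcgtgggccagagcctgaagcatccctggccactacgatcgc
Robo4: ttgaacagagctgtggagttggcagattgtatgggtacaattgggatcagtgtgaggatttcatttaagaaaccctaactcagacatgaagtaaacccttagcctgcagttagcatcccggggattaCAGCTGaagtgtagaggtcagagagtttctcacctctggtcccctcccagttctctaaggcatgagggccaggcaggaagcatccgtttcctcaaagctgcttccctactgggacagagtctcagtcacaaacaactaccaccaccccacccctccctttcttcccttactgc
Itgax: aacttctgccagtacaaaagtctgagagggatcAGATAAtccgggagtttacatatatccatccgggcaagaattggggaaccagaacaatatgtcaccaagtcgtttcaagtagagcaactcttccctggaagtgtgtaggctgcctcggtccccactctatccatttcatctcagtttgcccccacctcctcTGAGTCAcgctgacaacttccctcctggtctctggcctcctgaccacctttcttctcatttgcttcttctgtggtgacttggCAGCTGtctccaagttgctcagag
Cxcr4: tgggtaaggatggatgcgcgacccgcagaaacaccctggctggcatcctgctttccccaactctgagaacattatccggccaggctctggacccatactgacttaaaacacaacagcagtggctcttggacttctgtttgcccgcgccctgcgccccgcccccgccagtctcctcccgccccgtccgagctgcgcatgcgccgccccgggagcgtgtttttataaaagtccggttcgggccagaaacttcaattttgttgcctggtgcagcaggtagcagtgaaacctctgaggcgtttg

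The raised Itga1, Itga4 and Robo4 windows each held 1 CAGCTG match, which 16.3% of the 32851 RefSeq windows of the same length also held. Over all member windows 7 of 22 held it. Of the raised windows not printed, that of Itga5 held 1 and those of Itga8, Itgav, Itgb1, Itgb7 and Itgb8 held none. The Itgax window held the GATA, E-box and AP-1 letters once each, and GATA and AP-1 matches were present in 11.2% and 7.81% of all windows. No match to the marked motifs lay in the Itga2 or Cxcr4 window, which says only that these letters are not there. The shorter and the longer ETS motif and the RUNX motif were found in 14.9%, 3.2% and 5.27% of all windows. CAGCTG is also a case of the looser E-box CANNTG, which was counted but not marked and lay in 72.3% of windows, as did CCCTC in 66.0%. CG dinucleotides numbered 20 in the Cxcr4 window and 2 in the Robo4 window, against a median of 7 over all windows.

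In WT cells the most accessible start sites, per kb of peak width so that genes can be compared, were those of Itga4 at 45.4 CPM per kb, Itgal at 41.2, Itgb1 at 36.9 and Itgav at 33.2. Cxcr4 (29.0 CPM per kb), Icam1 (28.8) and Cd44 (26.7) followed. At the low end were Cxcr2, a receptor used by neutrophils, at 4.29 CPM per kb, the laminin-receptor subunit Itga7 at 4.21, Itga3 at 2.17 and Vcam1 at 1.88. The Itga3 value is that of a peak at another annotated start and not over its RefSeq start. Itgae and Itgb6 had no peak within 1 kb of a start site in that annotation, and the 2 such peaks given to Itga6 lay 67704 and 41944 bp outside the gene. The start-site peak of Cxcr4 was the strongest of all member peaks, at 78.8 ± 2.77 CPM (SD, n = 4).

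**Figure D1:**
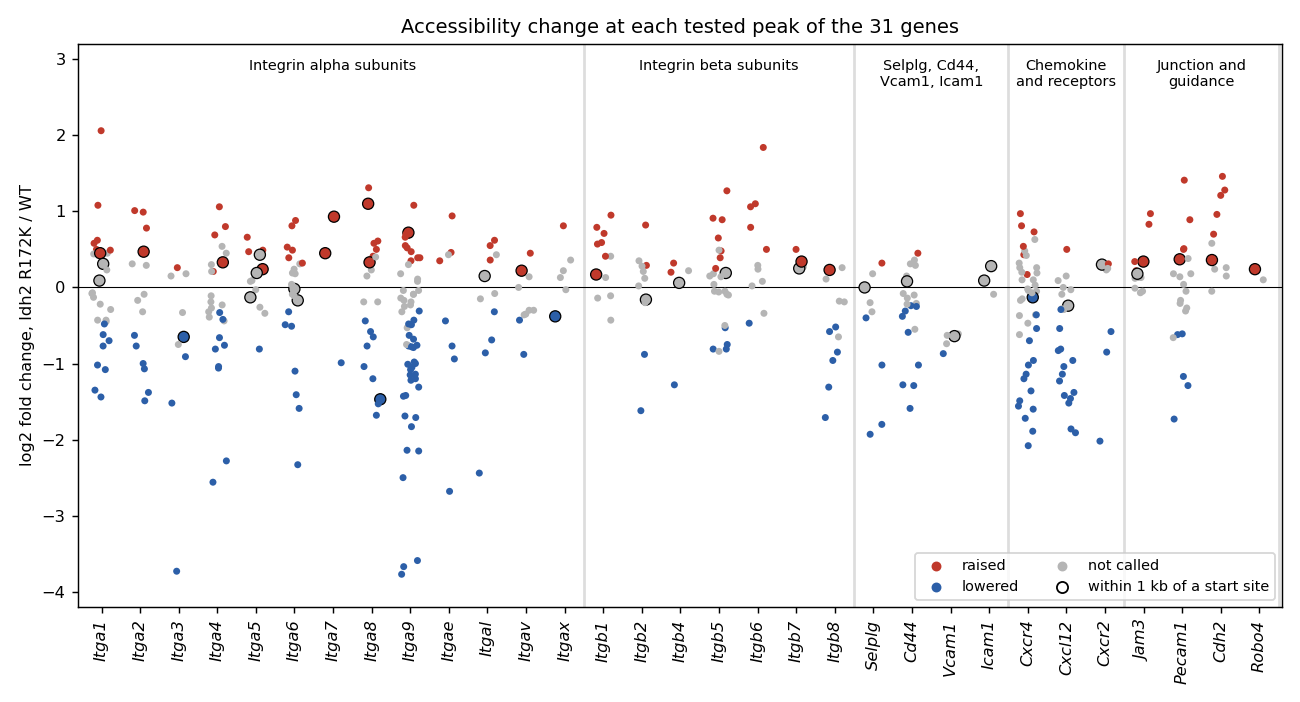
Log2 fold change of Idh2 R172K over WT (vertical axis) at each of the 470 tested member peaks, by gene (horizontal axis), red where raised, blue where lowered and grey where neither was called. Outlined points lie within 1 kb of a start site. Changes ran from -3.77 in Itga9 to 2.06 in Itga1, and most genes held both colours.

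Idh2 R172K changed accessibility at adhesion genes in both directions. Of the 470 member peaks with enough counts to test, 109 were raised and 152 lowered against WT at a Benjamini-Hochberg adjusted p under 0.05 in edgeR's quasi-likelihood test. Over all 123908 tested peaks 25.1% were raised and 27.9% lowered, against 23.2% and 32.3% of member peaks, so the raised share was near the background. The median log2 fold change was -0.08 for the members and 0.01 for all peaks. By more than 2-fold, 15 member peaks were raised and 79 lowered, beside 4504 raised and 16403 lowered over all 123908 tested peaks, where losses also outnumbered gains. At 81 of the raised and 116 of the lowered peaks all 4 mutant libraries lay beyond all 4 WT libraries. This separation was not counted over all peaks, so it cannot be read as particular to these genes. Calls within the Xist-low libraries were 85 raised and 130 lowered (24042 and 28343 of all 124394 peaks), and within the Xist-high libraries 67 and 106 (19587 and 23388 of 123572). In bulk chromatin, fewer cells of a type and less signal per cell cannot be told apart.

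Start sites and the rest of the loci moved differently. Within 1 kb of a start site 17 of 41 member peaks were raised and 4 lowered, where the background was 39.7% raised and 14.0% lowered. Farther away 92 of 429 were raised and 148 lowered, against 22.9% and 30.0% of all such peaks. Member shares were thus 41.5% and 9.76% at start sites and 21.4% and 34.5% elsewhere, so the difference between the classes is one that all peaks shared. Median log2 fold changes were 0.22 at start sites and -0.11 elsewhere, and under the other scalings they stayed between 0.15 and 0.24 and between -0.19 and -0.05.

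**Figure D2:**
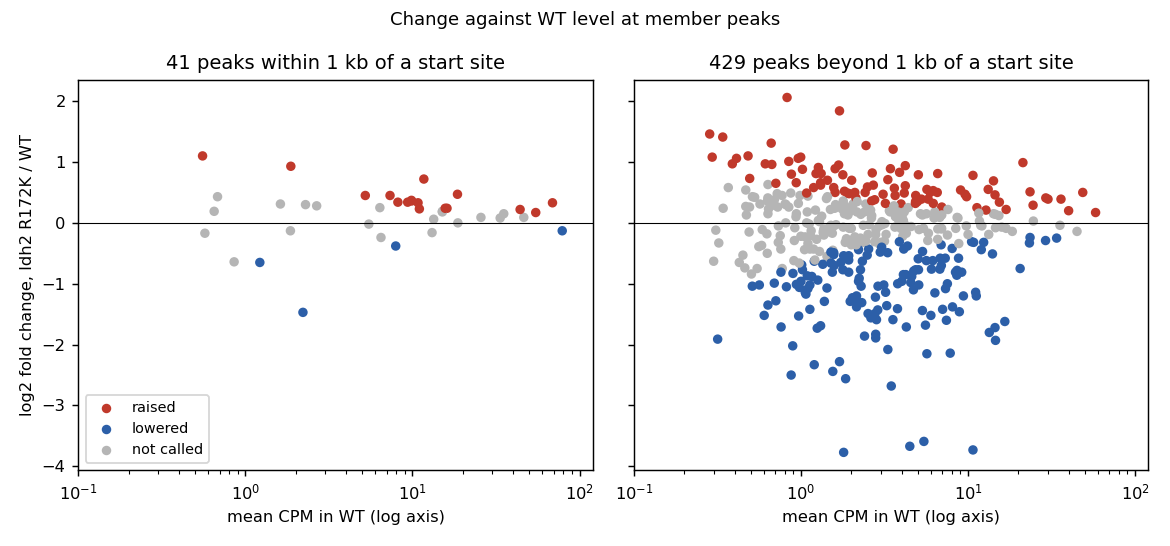
Log2 fold change of Idh2 R172K over WT against the mean CPM in WT (log axis) for member peaks within 1 kb of a start site (left) and beyond it (right). Of the start-site peaks 17 of 41 are red (raised) and 4 blue (lowered); losses beyond 2-fold number 1 on the left and 78 on the right, where all peaks gave 785 of 15986 and 15618 of 107922.

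Integrin alpha subunits, which set ligand choice, held 231 tested peaks, of which 55 were raised and 87 lowered in Idh2 R172K. The shares were 23.8% and 37.7%, beside 25.1% and 27.9% of all tested peaks, and the median was -0.17. Itga9 alone gave 10 of the raised and 31 of the lowered alpha peaks. Itga9, whose receptor binds tenascin and osteopontin, had the most peaks, 57, with 53 inside its gene at chr9:118606709-118901003. Its start-site peak at chr9:118606351-118607466 read 11.4, 12.2, 11.4 and 11.5 CPM in WT and 19.8, 18.2, 18.8 and 19.8 CPM in Idh2 R172K. Every mutant library was above every WT library, and the log2 fold change was 0.72 ± 0.08 (SE, adjusted p = 1.42e-10). Of all 57 Itga9 peaks 31 were lowered and 10 raised, so losses outnumbered gains at the locus. The raised peaks were not confined to the start site, and the largest log2 fold change at the locus was 1.08.

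The intronic Itga9 peak at chr9:118856159-118857148, 249944 bp into the gene, read 6.52, 4.66, 5.52 and 5.05 CPM in WT. In Idh2 R172K it read 0.269, 0.487, 0.444 and 0.676 CPM, a log2 fold change of -3.59 ± 0.22 (adjusted p = 3.72e-17). The Tet2 knockout libraries, at 2.52, 2.78, 2.36 and 2.55 CPM, lay between the others without overlap, with a log2 fold change of -1.10 ± 0.15 (adjusted p = 8.97e-06). The direct test of Idh2 R172K against the Tet2 knockout gave -2.50 (adjusted p = 5.46e-11). Idh1 R132H (4.39 ± 0.639 CPM) and Idh2 R140Q (4.81 ± 1.15 CPM; SD, n = 4 each) overlapped WT. Summed over its peaks, Itga9 had 256 to 273 CPM in the WT libraries, 241 to 247 CPM in the Tet2 knockout and 212 to 219 CPM in Idh2 R172K, sums that were not tested. Leaving Itga9 out, 99 of 413 tested member peaks were raised and 121 lowered, with a median log2 fold change of -0.05. The lowered share was then 29.3%, beside 32.3% with Itga9 and 27.9% of all tested peaks. Much of the members' excess of losses over the background thus lay at this 1 gene.

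**Figure D3:**
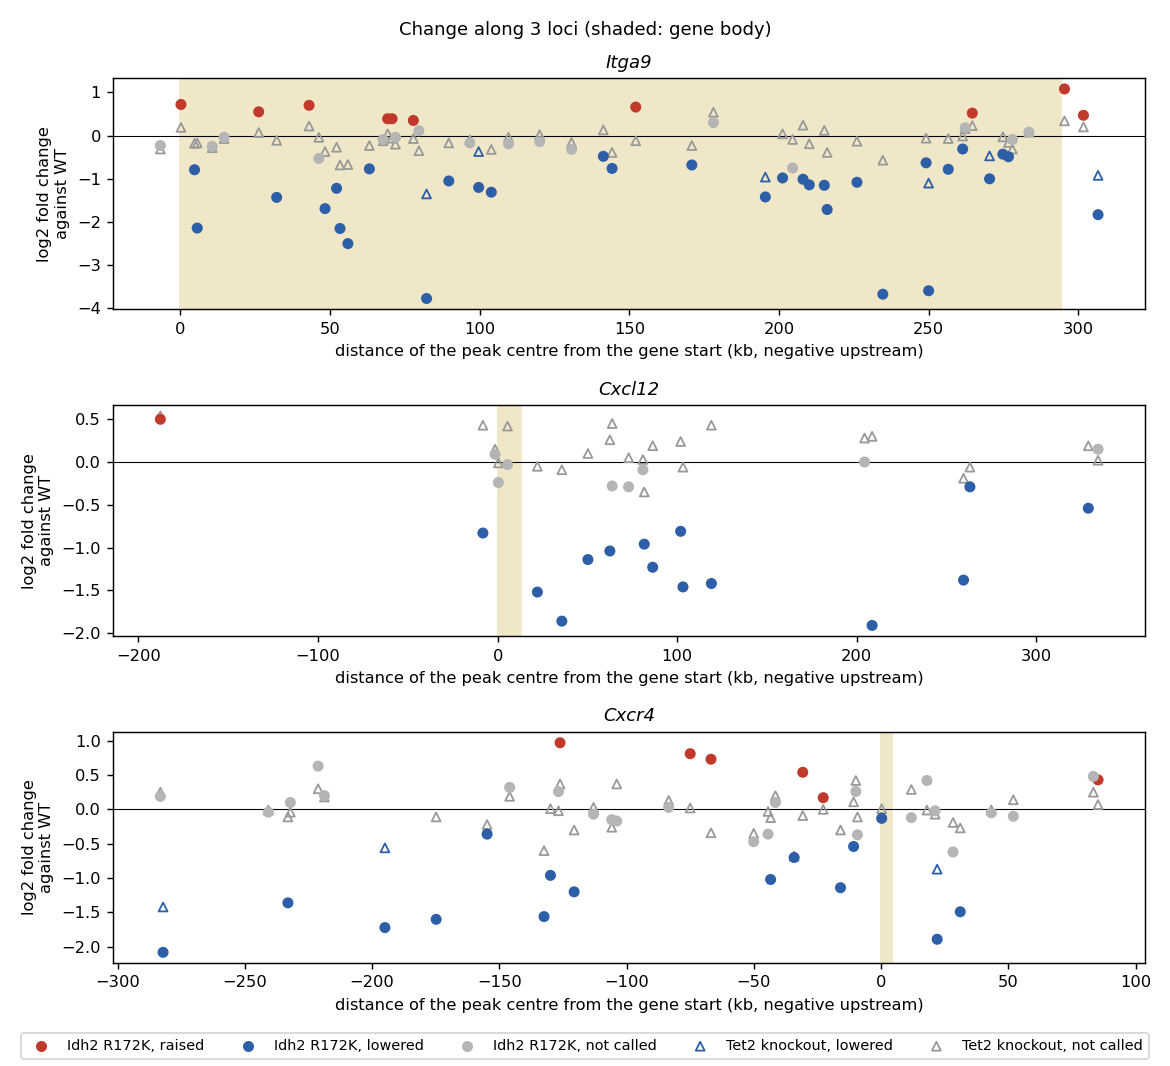
Log2 fold change against WT (vertical axis) by distance of each tested peak from the gene start in kb (horizontal axis, negative upstream) at Itga9, Cxcl12 and Cxcr4, with the gene body shaded. Filled circles are Idh2 R172K and open triangles the Tet2 knockout. At Itga9 in Idh2 R172K, 10 peaks are raised, among them the start by 0.72, and 31 are lowered, down to -3.77.

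Itga3, the alpha subunit of a laminin receptor, held the strongest test among all member peaks, 6116 bp upstream at chr11:95082644-95083276. WT libraries read 12.4, 8.76, 10.2 and 11.4 CPM and Idh2 R172K libraries 0.808, 0.682, 0.887 and 0.732 CPM. The log2 fold change was -3.73 ± 0.17 (adjusted p = 1.5e-20). At the same peak the Tet2 knockout read 5.65, 4.97, 3.71 and 5.30 CPM (-1.13 ± 0.12, adjusted p = 8.23e-08) and Idh1 R132H 8.44, 6.49, 6.11 and 5.98 CPM (-0.66 ± 0.12, adjusted p = 0.013). Both sets lay wholly below WT. Idh2 R140Q, at 7.97, 8.62, 9.38 and 7.06 CPM, overlapped WT and was not called (-0.38, adjusted p = 0.735). By mean level the order was WT, Idh2 R140Q, Idh1 R132H, Tet2 knockout and Idh2 R172K. Libraries of Idh2 R140Q and Idh1 R132H overlapped, whereas those of the Tet2 knockout and of Idh2 R172K each lay apart from all others. The peak over the Itga3 RefSeq start, at 14.2 CPM in WT, had a log2 fold change of 0.15 in Idh2 R172K and was not called.

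Itga4 showed the same mixture. Its start-site peak at chr2:79254608-79256125 rose from 68.9 ± 5.26 to 86.8 CPM in Idh2 R172K (log2 fold change 0.33, adjusted p = 9.42e-05), and an intronic peak rose from 12 to 17.6 CPM across the WT libraries to 18.1 to 24.7 CPM (0.69 ± 0.10, adjusted p = 3.47e-07). A weak peak 128789 bp upstream read 1.74, 2.33, 1.97 and 1.35 CPM in WT and 0.308, 0.390, 0.333 and 0.225 CPM in Idh2 R172K (-2.56 ± 0.27, adjusted p = 2.29e-10). The Tet2 knockout lay between them at 0.794, 0.779, 0.811 and 0.977 CPM (-1.12 ± 0.21, adjusted p = 0.00107), a call that passed within the Xist-low (adjusted p = 0.0175) but not the Xist-high libraries (0.0821).

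Collagen-binding Itga1 and Itga2 held the named gains of lowest p among the alpha subunits, but losses outnumbered gains at both loci. Itga1 had 7 peaks raised and 8 lowered of 29, and Itga2 had 4 raised and 6 lowered of 15. The strongest Itga1 loss lay 108927 bp upstream (-1.44 ± 0.15, adjusted p = 4.54e-11). An intronic Itga1 peak at chr13:115011482-115012030 rose from 0.872, 0.491, 1.12 and 0.820 CPM in WT to 3.81, 2.92, 2.96 and 3.60 CPM in Idh2 R172K (2.06 ± 0.20, adjusted p = 1.2e-11). The other 3 genotypes overlapped WT there, with means of 0.760 to 0.883 CPM. The Itga2 peak at chr13:114845526-114846502 read 18.4, 20.9, 22.3 and 23.8 CPM in WT and 40.5, 41.2, 42.1 and 45.0 CPM in Idh2 R172K (0.99 ± 0.09, adjusted p = 4.51e-11). In the Tet2 knockout it read 30.1, 23.6, 26.5 and 27.0 CPM, which touched the WT range (0.33 ± 0.09, adjusted p = 0.0319). That smaller call was lost on leaving out any of WT replicates 1 and 2 and Tet2 knockout replicates 1, 3 and 4 (adjusted p from 0.0763 to 0.148).

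Itga2 is also known from platelets, and megakaryocyte markers were read beside it. Of 39 tested peaks at these markers 14 were raised and 5 lowered in Idh2 R172K. The shares were 35.9% and 12.8%, beside 25.1% and 27.9% of all tested peaks. Start-site peaks of 7 of 10 megakaryocyte markers summed to 106 CPM on average in WT (98.7 to 114), 115 CPM in the Tet2 knockout (108 to 124) and 156 CPM in Idh2 R172K (up to 168). Every Idh2 R172K library was above every WT and Tet2 knockout library. Of all tested peaks within 1 kb of a start site 39.7% were raised in Idh2 R172K, with a median log2 fold change of 0.14. Gp6, Itga2b and Ppbp had no start-site peak under the rule, and none of the other 7 was under 1 CPM in WT. The part of these cells in the Itga2 result was not tested.

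Among the remaining alpha subunits, Itgae, the partner of Itgb7 that binds E-cadherin, had an intronic peak that fell from 3.47 ± 0.593 to 0.541 ± 0.153 CPM in Idh2 R172K (-2.68, adjusted p = 4.02e-13) and to 2.04 ± 0.245 CPM in the Tet2 knockout (-0.75, adjusted p = 0.00607). The latter call passed within the Xist-high (adjusted p = 0.0381) but not the Xist-low libraries (0.125). Another Itgae intronic peak rose from 4.21 ± 0.679 to 8.19 ± 0.530 CPM in Idh2 R172K (0.94, adjusted p = 8.97e-07). Itga8 lost 9 and gained 7 of 21 peaks, and its strongest loss, 72887 bp past the gene, went from 5.56 ± 0.646 to 1.76 ± 0.603 CPM (-1.68, adjusted p = 1.52e-10). Itga6, a laminin-receptor subunit used to mark stem cells, gained 6 and lost 7 of 24, including an intronic fall from 3.55 ± 0.398 to 1.16 ± 0.147 CPM (-1.59, adjusted p = 7.24e-10). Itgax, an alpha subunit of dendritic cells and other myeloid cells, was lowered at its start-site peak, from 7.94 to 6.22 CPM (-0.38, adjusted p = 0.0015), with overlapping libraries. Itga5 and Itgav, receptors for fibronectin and other matrix proteins, gained 4 and 2 peaks and lost 1 and 2. Itgal gained 3 and lost 4 of 11, with a start-site peak at 35.2 CPM that did not pass the test (0.15, adjusted p = 0.0516).

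Integrin beta subunits had more gains than losses, with 26 of 79 tested peaks raised and 14 lowered in Idh2 R172K. The shares were 32.9% and 17.7%, beside 25.1% and 27.9% of all tested peaks, and the median was 0.15. Itgb1, the common partner of most alpha subunits named here, gained 7 of 12 peaks and lost none, and 6 or 7 gains with no loss were found under each scaling. Its start-site peak went from 54.7 ± 2.81 to 61.5 CPM (0.17, adjusted p = 0.0123). Itgb6 gained 5 and lost 1 of 11. Its intronic peak at chr2:60625883-60626357 read 1.71, 1.68, 1.64 and 1.76 CPM in WT and 6.58, 6.53, 5.21 and 6.36 CPM in Idh2 R172K (1.84 ± 0.17, adjusted p = 2.19e-12). All 4 mutant libraries stood clear of every other genotype, whose means were 1.70 to 1.97 CPM.

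Itgb7, the beta subunit of gut-homing receptors, had its strongest peak at chr15:102224393-102225846, which rose from 46.1 to 52.3 CPM across WT to 65.4 to 72.4 CPM in Idh2 R172K (0.50 ± 0.06, adjusted p = 1.75e-08). Itgb5 held opposite calls close together: the peak at chr16:33941368-33941949 rose from 2.45 ± 0.417 to 6.01 ± 1.02 CPM (1.27, adjusted p = 1.76e-09), and that at chr16:33936807-33938153 fell from 20.5 ± 2.55 to 12.2 ± 1.05 CPM (-0.75, adjusted p = 1.58e-09). Itgb2, the leukocyte beta subunit, lost an intronic peak at chr10:77536668-77537531. It read 18.5, 16.2, 14.3 and 17.3 CPM in WT and 5.35, 5.26, 5.77 and 5.18 CPM in Idh2 R172K (-1.62 ± 0.09, adjusted p = 3.06e-18), and its start-site peak did not pass the test (-0.16, adjusted p = 0.132). Itgb8, which activates latent TGF-beta with Itgav, gained 1 and lost 6 of 12, and Itgb4, the partner of Itga6, gained 2 and lost 1 of 5.

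Counter-receptor and selectin-ligand genes had few gains, with 2 of 38 tested peaks raised and 14 lowered in Idh2 R172K. The shares were 5.26% and 36.8%, beside 25.1% and 27.9% of all tested peaks, and the median was -0.24. Selplg, the P-selectin ligand on leukocytes, was lowered 4665 bp upstream at chr5:113836965-113837421. WT libraries read 16.6, 14.9, 13.8 and 13.2 CPM and Idh2 R172K libraries 3.62, 4.19, 3.77 and 4.00 CPM (-1.93 ± 0.11, adjusted p = 6.51e-19). The Tet2 knockout read 12.4, 13.7, 10.3 and 10.6 CPM, overlapping WT, and was called at -0.33 ± 0.09 (adjusted p = 0.0285), whereas Idh2 R140Q, wholly below WT at 10.9 to 13.1 CPM, was not (-0.30, adjusted p = 0.718). The Tet2 knockout call was lost without its replicate 3 or 4 (adjusted p = 0.153 and 0.125) or WT replicate 1 or 2 (0.175 and 0.0816). The Selplg start-site peak was 18.7 CPM in WT and 18.8 CPM in Idh2 R172K. Cd44 gained 1 and lost 9 of 21, with an intronic peak at 2.83 ± 0.329 CPM in WT, 1.60 ± 0.219 CPM in the Tet2 knockout (-0.84, adjusted p = 0.00139) and 0.970 ± 0.139 CPM in Idh2 R172K (-1.59, adjusted p = 2.84e-09). Vcam1 lost 1 of 5 weak peaks, none above 1.21 CPM in WT, and the 3 peaks of Icam1 had no call.

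The chemokine genes had 8 of 74 tested peaks raised and 32 lowered, with a median of -0.26. The shares were 10.8% raised and 43.2% lowered, beside 25.1% and 27.9% of all tested peaks. Around Cxcl12, 14 of 23 peaks were lowered and 1 raised in Idh2 R172K. Only 2 of the 23 lay inside the gene, and the farthest was 321555 bp away. The Cxcl12 start-site peak, at 6.48 CPM in WT, was not called (-0.24). The peak of lowest p, 90399 bp past the gene at chr6:117271326-117272209, read 10.1, 8.63, 6.70 and 10.0 CPM in WT and 3.15, 3.31, 3.33 and 3.32 CPM in Idh2 R172K (-1.46 ± 0.12, adjusted p = 1.52e-13). Tet2 knockout libraries, at 7.62 to 9.42 CPM, overlapped WT, and none of the 23 peaks was called in that genotype. That count was 1 raised under loess scaling, with the Xist set as covariate or within the Xist-high libraries, and 2 raised with the replicate block. The summed level over the Cxcl12 peaks was 92.9 to 102 CPM in WT, 63.0 to 74.7 CPM in Idh2 R172K and 99.3 to 109 CPM in the Tet2 knockout. Within the Xist-high libraries 7 of the losses were called, and 14 within the Xist-low libraries. Under loess scaling, which removes trends with signal level, 11 were called.

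Stromal markers were read beside Cxcl12, a stromal product. Start-site peaks of 10 of 14 stromal markers summed to 110.0 to 114 CPM in WT and 117 to 120 CPM in Idh2 R172K. A few genes made up most of the WT sum: Runx2 read 49 CPM, Kitl 15.5 and Pdgfrb 14.9, whereas Col1a1 read 1.85 and Lepr 1.51. Over all tested start-site peaks the median log2 fold change in Idh2 R172K was 0.14. Adipoq, Col1a2, Col3a1 and Dcn had no start-site peak, and 2 of the 10 were under 1 CPM in WT. Their part in the result was not tested.

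Cxcr4 had 45 peaks, 44 of them outside its short gene, and 6 were raised and 15 lowered among the 44 tested. Its start-site peak was marginally lowered in Idh2 R172K, from 78.8 to 71.9 CPM (-0.13, adjusted p = 0.0486), with overlapping libraries. Far upstream, 194983 bp from the gene at chr1:128786879-128787686, WT libraries read 14.1, 13.8, 15.8 and 14.3 CPM. Tet2 knockout libraries read 10.0, 10.3, 9.77 and 9.28 CPM (-0.56 ± 0.10, adjusted p = 0.000296) and Idh2 R172K libraries 4.69, 3.90, 4.07 and 4.73 CPM (-1.72 ± 0.11, adjusted p = 1.26e-16), so that the 3 groups did not overlap. A peak 282135 bp upstream read 3.31 ± 0.550 CPM in WT, 1.23 ± 0.128 in the Tet2 knockout (-1.42, adjusted p = 0.000237) and 0.754 ± 0.380 in Idh2 R172K (-2.08, adjusted p = 5.74e-08). There the direct test between the mutants did not pass (-0.67 ± 0.30, adjusted p = 0.0741). For both peaks the deposited annotation lists a transcript start nearer than that of Cxcr4. Cxcr2 gained 1 and lost 3 of 7 in Idh2 R172K.

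**Figure D4:**
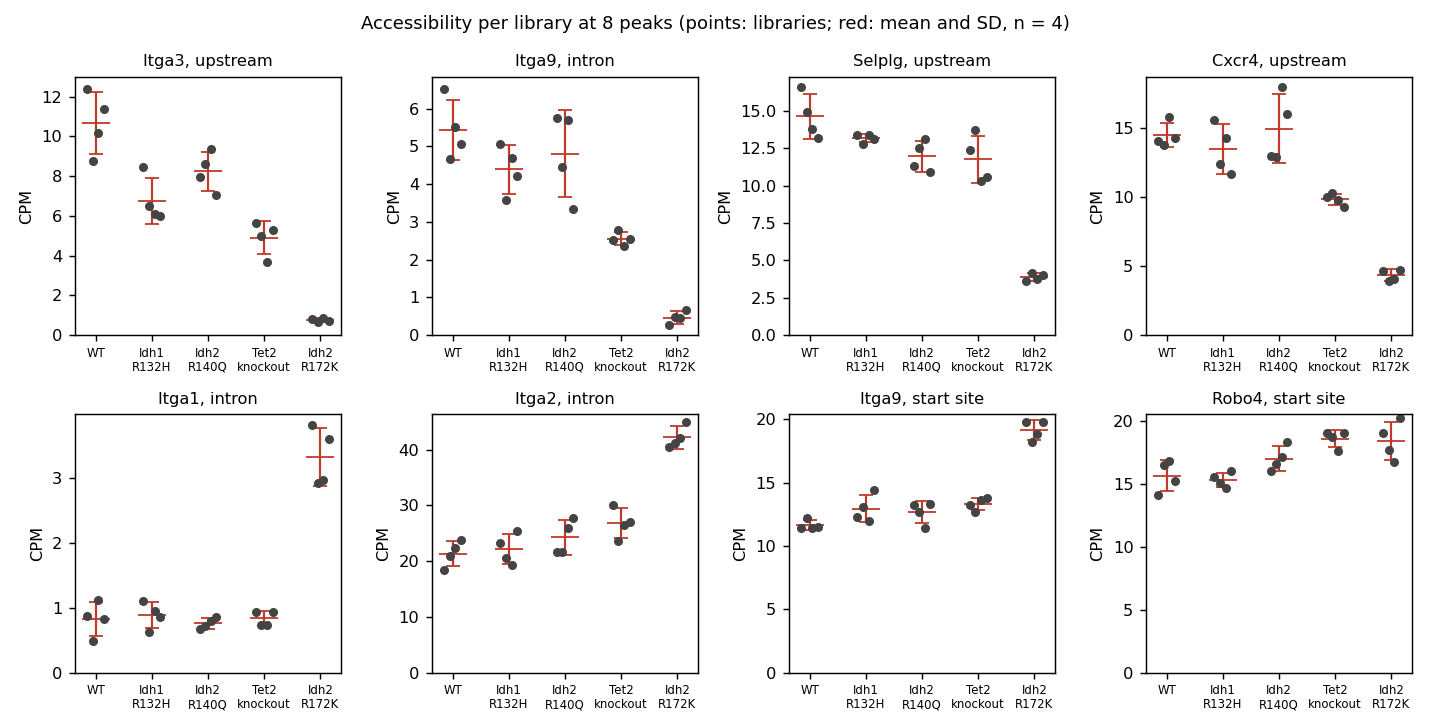
CPM (vertical axes, from 0) in each of the 20 libraries at 8 peaks, by genotype, with the mean and SD of 4 libraries in red. At the Itga3 peak the Idh2 R172K libraries sit between 0.682 and 0.887 CPM and the WT libraries between 8.76 and 12.4 CPM; at the Itga2 peak they sit at 40.5 to 45.0 against 18.4 to 23.8 CPM.

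Junction, endothelial and guidance receptors had 18 of 48 tested peaks raised and 5 lowered, with a median of 0.18. The shares were 37.5% raised and 10.4% lowered, beside 25.1% and 27.9% of all tested peaks. Cdh2 (N-cadherin) gained 6 of 11 peaks and lost none. Only 2 of the 11 lay inside the gene, and the farthest was 1076154 bp away. A Cdh2 peak 149870 bp upstream read 2.77, 2.86, 4.34 and 4.27 CPM in WT. In Idh2 R172K it read 9.04, 6.62, 7.13 and 9.24 CPM (1.21 ± 0.15, adjusted p = 1.79e-08). Jam3, a junctional adhesion molecule present on stem cells, gained 5 of 13 and lost none, and its intronic peak rose from 3.89 ± 0.488 to 7.0 ± 0.784 CPM (0.83, adjusted p = 9.44e-08). Pecam1, shared by endothelium and blood cells, gained 6 and lost 5 of 22, with an intronic rise from 21.0 to 25.6 CPM in WT to 32.8 to 34.9 CPM (0.51 ± 0.07, adjusted p = 5.16e-08).

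Robo4, a guidance receptor of endothelium that stem cells also carry, had 2 peaks. Its start-site peak at chr9:37401618-37402529 read 14.1, 16.5, 16.8 and 15.2 CPM in WT, 19, 18.7, 17.6 and 19 CPM in the Tet2 knockout and 19, 17.7, 16.7 and 20.2 CPM in Idh2 R172K. The Tet2 knockout lay wholly above WT (0.25 ± 0.07, adjusted p = 0.0425), and Idh2 R172K overlapped it by 1 library (0.24 ± 0.07, adjusted p = 0.00665). Their direct difference was -0.01 ± 0.07 (adjusted p = 0.892). These small calls were sensitive. The Tet2 knockout call was lost on leaving out any 1 library except WT replicate 3 (adjusted p from 0.0504 to 0.200), within the Xist-low or Xist-high libraries (0.0909 and 0.296), under loess scaling and in DESeq2's Wald test. The Idh2 R172K call was lost under loess scaling (0.16, adjusted p = 0.0582) and plain library sizes (0.16, adjusted p = 0.0629).

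Endothelial markers were read beside the junction genes. Of 138 tested peaks at these markers 35 were raised and 42 lowered in Idh2 R172K (25.4% and 30.4%; median 0.03), near the all-peak shares. Among them a peak inside Cdh5 had a log2 fold change of -1.77 and one inside Stab2 of -2.97. A peak 9193 bp outside Egfl7 was raised, from 31.2 ± 0.99 to 54.1 ± 4.95 CPM (0.8, adjusted p = 2.3e-13). Start-site peaks of 10 of 12 endothelial markers summed to 97.1 to 98.9 CPM in WT, 94.4 to 103 CPM in the Tet2 knockout and 107 to 123 CPM in Idh2 R172K. Cdh5 and Sele had no start-site peak, and none of the 10 was under 1 CPM in WT. Over all tested start-site peaks the median log2 fold change in Idh2 R172K was 0.14. Start-site sums of lymphoid markers were lower in Idh2 R172K: 50.8 to 54.7 CPM in WT and 41.5 to 48.4 CPM in Idh2 R172K for 6 of 10 B cell genes, and 46.4 to 56.8 and 41.8 to 43.7 CPM for 6 of 12 T and NK cell genes. For 8 of 13 neutrophil and monocyte genes the sums were 56.4 to 69.6 and 48.0 to 57.4 CPM, for 2 of 11 erythroid genes 9.92 to 12 and 8.92 to 11.8 CPM, and for 4 of 8 mast cell genes 11.2 to 14.6 and 9.18 to 13.0 CPM. The part of any of these cells in the member results was not tested.

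**Figure D5:**
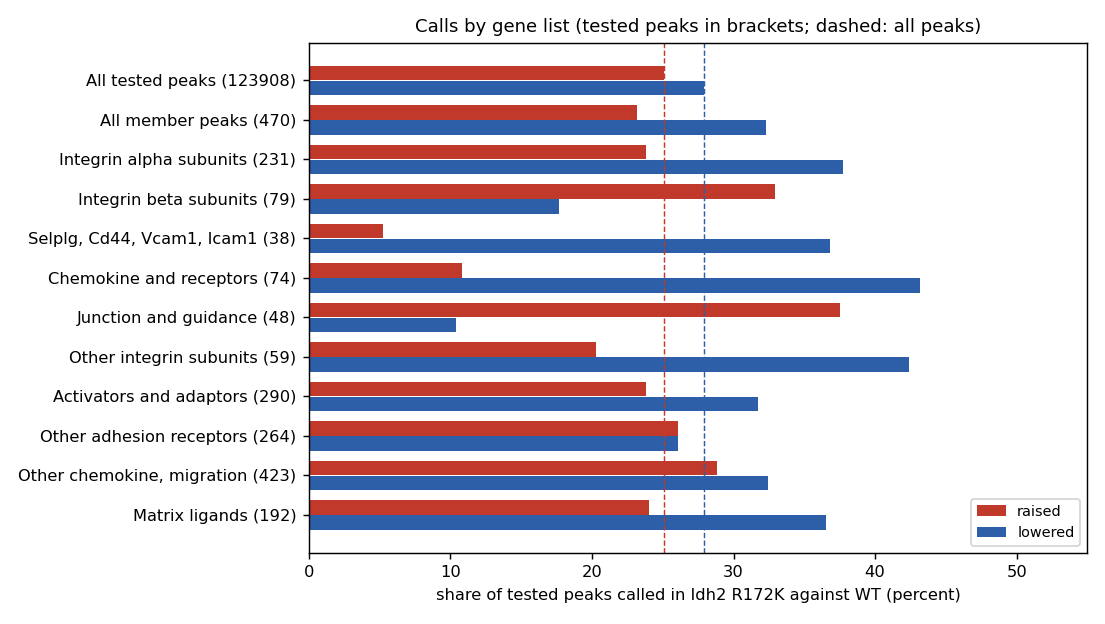
Share of tested peaks raised (red) and lowered (blue) in Idh2 R172K against WT, in percent, for all peaks, all member peaks, the 5 member groups and 5 further gene lists, with dashed lines at the all-peak shares of 25.1% and 27.9%. Beta subunits and junction genes lie above the raised line and below the lowered line; chemokine genes show the reverse.

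In the Tet2 knockout far fewer member peaks changed: 2 of 470 were raised and 20 lowered, against 0.785% and 2.32% of all tested peaks (0.426% and 4.26% of members). All 20 losses lay beyond 1 kb of a start site, where 4.66% of member peaks and 2.52% of all peaks were lowered. Within 1 kb none of the 41 member peaks was lowered, beside 0.951% of all such peaks. Of the 20, 5 exceeded 2-fold, as did 845 of the 2871 lowered over all peaks. They fell on 11 genes, with 6 at Itga9, 3 at Cxcr4 and 2 each at Itga3 and Cxcr2. By role, 11 were at alpha subunits, 2 at beta subunits, 2 at the counter-receptor group and 5 at chemokine genes, and none at the junction group. Within the Xist-low libraries 4 were raised and 12 lowered, beside 2279 and 1356 of all 124394 peaks tested there. Within the Xist-high libraries the member counts were 1 and 13, beside 469 and 2258 of 123572. Lowered calls numbered 12 without WT replicate 1 and 13 without Tet2 knockout replicate 4.

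At 2 loci, Itgb5 and Cxcr2, a loss called in the Tet2 knockout was not called in Idh2 R172K. An Itgb5 intronic peak at chr16:33836536-33837572 read 10.4, 9.94, 9.99 and 8.74 CPM in WT, 7.19, 7.50, 6.72 and 7.25 CPM in the Tet2 knockout (-0.45 ± 0.10, adjusted p = 0.00412) and 9.16, 10.4, 9.91 and 8.28 CPM in Idh2 R172K, which was not called. The direct difference of 0.39 ± 0.10 passed the test (adjusted p = 0.00121). The Cxcr2 peak 2626 bp upstream at chr1:74151039-74151697 read 4.17 ± 0.664 CPM in WT, 2.72 ± 0.380 in the Tet2 knockout (-0.62, adjusted p = 0.0223) and 4.86 ± 0.823 in Idh2 R172K (0.23, adjusted p = 0.207). Here the direct difference was 0.84 ± 0.16 (adjusted p = 4.1e-05). Neither Tet2 knockout loss passed within both Xist sets: Itgb5 gave adjusted p = 0.0307 and 0.101 in the low and high libraries, and Cxcr2 0.0796 and 0.129. The Cxcr2 call was also lost without Tet2 knockout replicate 1 (adjusted p = 0.0869) or WT replicate 2 or 4 (0.138 and 0.0549).

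Idh1 R132H and Idh2 R140Q left almost all of these loci without a call. In Idh1 R132H the Itga3 upstream peak was the only one of 470, where 0.0274% of all peaks were called in either direction, and 23 members had an unadjusted p under 0.05, beside 6282 of all 123908 peaks. At the Itga3 peak the log2 fold change was -0.64 in the Xist-low and -0.69 in the Xist-high libraries, with adjusted p = 0.0802 and 0.601. It did not pass on leaving out Idh1 R132H replicate 2, 3 or 4 (adjusted p = 0.0708, 0.131 and 0.123) or WT replicate 1 or 4 (0.132 and 0.0911). In Idh2 R140Q no member peak was called by edgeR or by DESeq2's Wald test, where 0.0153% of all peaks were, and 31 had an unadjusted p under 0.05, beside 6810 of 123908.

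Direct tests compared the mutants without WT. Against the Tet2 knockout, Idh2 R172K had 94 member peaks raised and 134 lowered, where 20.1% and 24.1% of all peaks were called (20.0% and 28.5% of members). Against Idh2 R140Q, the other Idh2 mutation, 94 were raised and 149 lowered, beside a background of 21.5% and 25.5% (20.0% and 31.7% of members). The Itga3 upstream peak differed between the 2 Idh2 mutants by -3.36 ± 0.18 (adjusted p = 1.34e-18), the Selplg peak by -1.63 ± 0.11 (adjusted p = 3.4e-16) and the Itgb6 peak by 1.81 ± 0.17 (adjusted p = 5.48e-12).

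Lists of further adhesion and homing genes had 20.3% to 28.8% of their peaks raised and 26.1% to 42.4% lowered in Idh2 R172K. Over all tested peaks these shares were 25.1% and 27.9%. Of 59 peaks at the other integrin subunits 12 were raised and 25 lowered, including a gain 240 bp outside Itga2b from 31.9 ± 1.81 to 48.7 ± 2.74 CPM (0.61, adjusted p = 7.9e-11), a subunit of the platelet fibrinogen receptor. Integrin activators and adaptors had 69 raised and 92 lowered of 290. A peak 15135 bp outside Rap1b, a small GTPase that activates integrins, was lowered from 32.2 ± 1.43 to 5.00 ± 0.903 CPM (-2.69, adjusted p = 5.61e-23). Other adhesion and junction receptors had 69 raised and 69 lowered of 264. The list of other chemokine and migration genes had 122 raised and 137 lowered of 423, among them a loss 6532 bp outside Ackr3, the atypical receptor that scavenges Cxcl12, from 9.12 ± 1.54 to 1.85 ± 0.459 CPM (-2.37, adjusted p = 2.13e-17). Matrix ligands had 46 raised and 70 lowered of 192, and a peak 247578 bp outside Fn1 (fibronectin, the ligand of Itga4 and Itga5) was lowered from 3.59 ± 0.142 to 0.631 ± 0.184 CPM (-2.42, adjusted p = 1.56e-12). In the Tet2 knockout these 5 lists had 0 to 7 raised and 1 to 11 lowered peaks each. The shares were 0.0% to 1.72% raised and 1.52% to 3.45% lowered, beside 0.785% and 2.32% of all tested peaks.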

How the data were processed

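Chromatin accessibility was measured in 20 libraries, 4 for each of 5 genotypes. The authors deposited raw counts per peak for 1 peak set common to all libraries, on build mm10. MACS2, featureCounts, BWA, Trim Galore, SAMtools and Picard are named per the submitters' processing notes, and for their order, settings and versions nothing is stated: not given in the sources used here. Deposited counts totalled 10502052 to 27890340 per library. Start-site distances came from the deposited peak annotation, and "within 1 kb" refers to them.

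All 125343 peaks were fitted together in edgeR 4.0.16 (R 4.3.3) with TMM scaling, filterByExpr, a robust quasi-likelihood fit and 1 mean per genotype. The filter kept 123908 peaks, and p-values were 2-sided and adjusted by Benjamini-Hochberg over all of them. Errors after ± are the SD over 4 libraries for CPM and the SE of the fit for log2 fold changes. The fit was also run on counts simulated from the WT means and the fitted spread. Replicates of a genotype differed by more than counting noise.

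In each comparison with WT, the rule named called peaks whose libraries did not overlap WT, by lowest p, for up to 12 genes per direction. Peaks called in the Idh1 R132H or Idh2 R140Q comparison, start-site peaks and up to 3 genes of each further list were also named. Members and lists were chosen with earlier results of these data known. Alternatives were DESeq2 1.42.0 (size factors and Wald test), plain library size, cyclic loess, no filter, a replicate block, the Xist set as covariate, fits within each Xist set, each library left out, peaks inside the gene only, assignment by nearest RefSeq start and an adjusted p under 0.01. Sequences under peaks away from the RefSeq windows were not used here. The 4 columns whose names pair Idh1 with 140Q were read as the Idh2 R140Q libraries, the genotype with that change in the labels. Same-numbered libraries deviated together by a correlation over 0.1 in every pair of WT with Idh1 R132H (0.102 to 0.232) and with Idh2 R140Q (0.115 to 0.275). This pairing comes from the data and not from the labels, and with the replicate block these comparisons gave 1 and 0 member calls, as without it. Same-numbered libraries of these genotypes also share the Xist set, so number and set were not told apart. WT replicate 3 correlated more with replicate 1 of Idh1 R132H (0.122) and of Idh2 R140Q (0.147) than with replicate 3 of each (0.102 and 0.131).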

Additional observations from a re-analysis of the deposited data

Results flagged for a closer look

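In 8 of 185 groups of 4 libraries, over 37 named peaks, 1 library stood apart from the other three by Dixon's test, and chance flags about 1 in 20 such groups. In Idh2 R172K these were replicate 1 at the Cxcl12 downstream peak (3.15 CPM, others 3.31 to 3.33), replicate 2 at the Itga9 intronic peak starting at 118688707 (0.195 CPM, others 0.111 to 0.115), replicate 3 at the Itgb6 intronic peak (5.21 CPM, others 6.36 to 6.58) and replicate 2 at the Itga4 intronic peak (18.1 CPM, others 23.7 to 24.7). In the Tet2 knockout they were replicate 2 at the Itga6 peak outside the gene starting at 71670202 (5.31 CPM, others 7.42 to 7.69) and replicate 4 at the Itga4 peak 128789 bp upstream (0.977 CPM, others 0.779 to 0.811). WT replicate 2 stood apart at the Itga9 start-site peak (12.2 CPM, others 11.4 to 11.5) and Idh2 R140Q replicate 3 at the Itgb5 peak starting at 33941368 (2.40 CPM, others 3.03 to 3.13).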

How the results depend on the processing

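The Idh2 R172K counts of 109 raised and 152 lowered member peaks ranged from 94 to 106 and from 134 to 149 on leaving out 1 library, and were 83 and 171 with plain library sizes and 117 and 130 with cyclic loess. Only 67 were raised within the Xist-high libraries, and peaks inside the genes alone gave 71 and 76. Against the Tet2 knockout, the Xist-high libraries gave 56 and 80 and peaks inside the genes gave 65 lowered. Against Idh2 R140Q these settings gave 53 and 90, and 62 and 72. The Tet2 knockout counts of 2 raised and 20 lowered were less steady: 0 to 5 raised and 12 to 21 lowered on leaving out 1 library, 1 and 13 within the Xist-high and 4 and 12 within the Xist-low libraries, 1 raised with DESeq2's Wald test, 4 raised with the Xist set as covariate, 9 lowered inside the genes and 0 and 11 at an adjusted p under 0.01. The single Idh1 R132H call gave 0 within either Xist set, inside the genes and at an adjusted p under 0.01, and 0 to 1 on leaving out 1 library. Within-set and left-out fits have fewer libraries, the inside-only counts fewer peaks, and beyond that the cause was not tested. No named peak reversed direction under any setting run.

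With the replicate number as a block, the Tet2 knockout had 9 raised and 31 lowered and Idh2 R172K 113 and 159. Deviations of same-numbered libraries correlated by -0.0942 to 0.289 over 40 pairs and 20 of the pairs exceeded 0.1. At least 1 pair fell below 0.1 in each comparison with Idh2 R172K or the Tet2 knockout, which were not taken as paired, and 15 of 20 libraries correlated best with their own number. In the Idh1 R132H and Idh2 R140Q comparisons with WT, where every pair exceeded 0.1, the block gave 1 and 0 member calls, as without it, and 17 raised and 79 lowered and 14 raised and 22 lowered over all peaks (8 and 26, and 10 and 9, without it). Depth limits weak peaks most: member peaks under 1 CPM rest on few reads per library.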
